A study of Anthurium andraeanum with 18 samples.

Results

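The genes described here are the transcripts of Anthurium andraeanum leaves whose text description names an AP2/ERF transcription factor. A gene was a member if its Swiss-Prot description, or its nr annotation where it had no Swiss-Prot one, contained ethylene-responsive transcription factor, dehydration-responsive element-binding, AP2-like or RAP2. No expression value entered that choice. Of 158487 assembled genes, 78 were members, 72 by Swiss-Prot and 6 by nr, and they carried 43 distinct Swiss-Prot descriptions. Most were named after Arabidopsis proteins (61 members), with 6 named after rice, 5 after tobacco species and 6 from nr entries. The label was checked against the Pfam annotation: 62 members carried the AP2 domain and 16 did not. Those without it include ERF2 (TRINITY_DN54607_c0_g4), CRF4 (TRINITY_DN50174_c0_g1), At2g41710, an ERF1B gene (TRINITY_DN52450_c0_g3) and an ERF003 gene (TRINITY_DN50716_c0_g2). A further 9 genes carried that domain under other descriptions (5 named APETALA 2, 2 named PTI5 and 2 named PTI6) and were not counted. Member sequences were 201 to 2612 bases long (median 1013), and 8 were shorter than 300 bases. Of the members, 45 fell into 19 assembly components that held 2 to 4 members each, so reads of near copies or of fragments of one gene may be split between them.

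Leaf RNA was sequenced from 2 plant materials, called Ken and MH in the sample titles, and the labels do not say what these are. All plants were in full flower and were kept in growth chambers under 12 h of light per day. Control plants (Ken control, MH control) stayed at 25 °C, and heated plants were sampled after 3 days at 38/33 °C day/night (Ken 38, MH 38) or after 3 more days at 40/35 °C (Ken 40, MH 40), so every 40/35 °C plant had also passed through 38/33 °C. Each of the 6 groups had 3 libraries, which the titles call biological replicates without saying whether they came from separate plants, so p-values measure the spread between these libraries. No group carries a transgene, a mutation or a chemical treatment in the labels.

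AP2/ERF proteins bind short DNA elements through the AP2 domain. The ERF branch includes the last step of ethylene signalling, in which EIN3 switches on genes such as ERF1, whose products act on GCC-box promoters of defence genes. The DREB branch binds the dehydration-responsive element and, in Arabidopsis and rice, its DREB2 members act in responses to heat and drought. Group VII ERFs such as RAP2-2 and RAP2-12 are kept unstable by an oxygen-dependent degradation pathway and switch on genes of low-oxygen metabolism, and the AP2-like branch, with RAP2-7 and TOE3, holds repressors of flowering that are targets of miR172.

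Libraries held 15845118 to 22867236 estimated counts. One library, MH 38 replicate 3, was unlike its group: on the first principal component (47.7% of the variance) it lay at 3.999 while MH 38 replicates 1 and 2 lay at 210 and 240, and its correlation with them was 0.881 and 0.865 against 0.960 between those 2. Leaf markers were lower in heated leaves of both materials: the summed level of 29 genes for chlorophyll a-b binding proteins, in TPM (a level per transcript length, scaled to a fixed library sum), was 56420 to 70434 for the Ken controls, 11652 to 14311 for Ken 38 and 143 to 214 for Ken 40. In MH it was 86574 to 104316 in the control, 1514, 813 and 20579 in the 3 MH 38 libraries and 82.4 to 275 in MH 40, so MH 38 replicate 3 kept the highest level of its group. Of the other lists, 5 Rubisco small chain genes summed to 21360 to 32380 TPM in the controls and to 116 to 696 at 40/35 °C, 21 xylem genes to 105 to 1113, 10 pollen genes to 42.4 to 553, 23 flower genes (5 of them APETALA 2) to 105 to 329, 4 animal genes to 44.8 to 78.8, 3 guard cell genes to 0 to 7.44 and 2 root genes to 0 to 7.78. The xylem and pollen sums were also lower in heated leaves of both materials. Xylem genes stood at 455 to 671 TPM in Ken control and 105 to 110 in Ken 40. In MH they stood at 751 to 1113 in the control and 134 to 158 in MH 40. Pollen genes stood at 280 to 342 TPM in Ken control and 72.0 to 85.1 in Ken 40. In MH they stood at 450 to 553 in the control and 42.4 to 54.2 in MH 40. No listed gene was at 0 in all 18 libraries. The part of these shifts in the results that follow was not tested, and in bulk tissue fewer cells of a type and less RNA per cell cannot be told apart.

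Together the members made up a small and changing share of the transcriptome. The Ken controls summed to 649.7 ± 31.0 TPM (SD, n = 3), the Ken 38 libraries to 1381 ± 79.4 and the Ken 40 libraries to 1564 ± 108. In MH the sum was 918 ± 130 in the control, 992 ± 145 in MH 38 and 719 ± 193 in MH 40. The Ken groups did not overlap with their control, whereas the MH 38 libraries (825 to 1084 TPM) and the MH control libraries (815 to 1065 TPM) did. RAP2-2 and RAP2-12, the pair with the highest mean level, held 30.5% to 36.8% of the sum in MH control, 35.4% to 36.6% in Ken control and 48.9% to 51.4% in Ken 40. Between 53 and 72 members had at least 1 count in a library, and 11 to 28 reached 10 TPM.

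**Figure D1:**
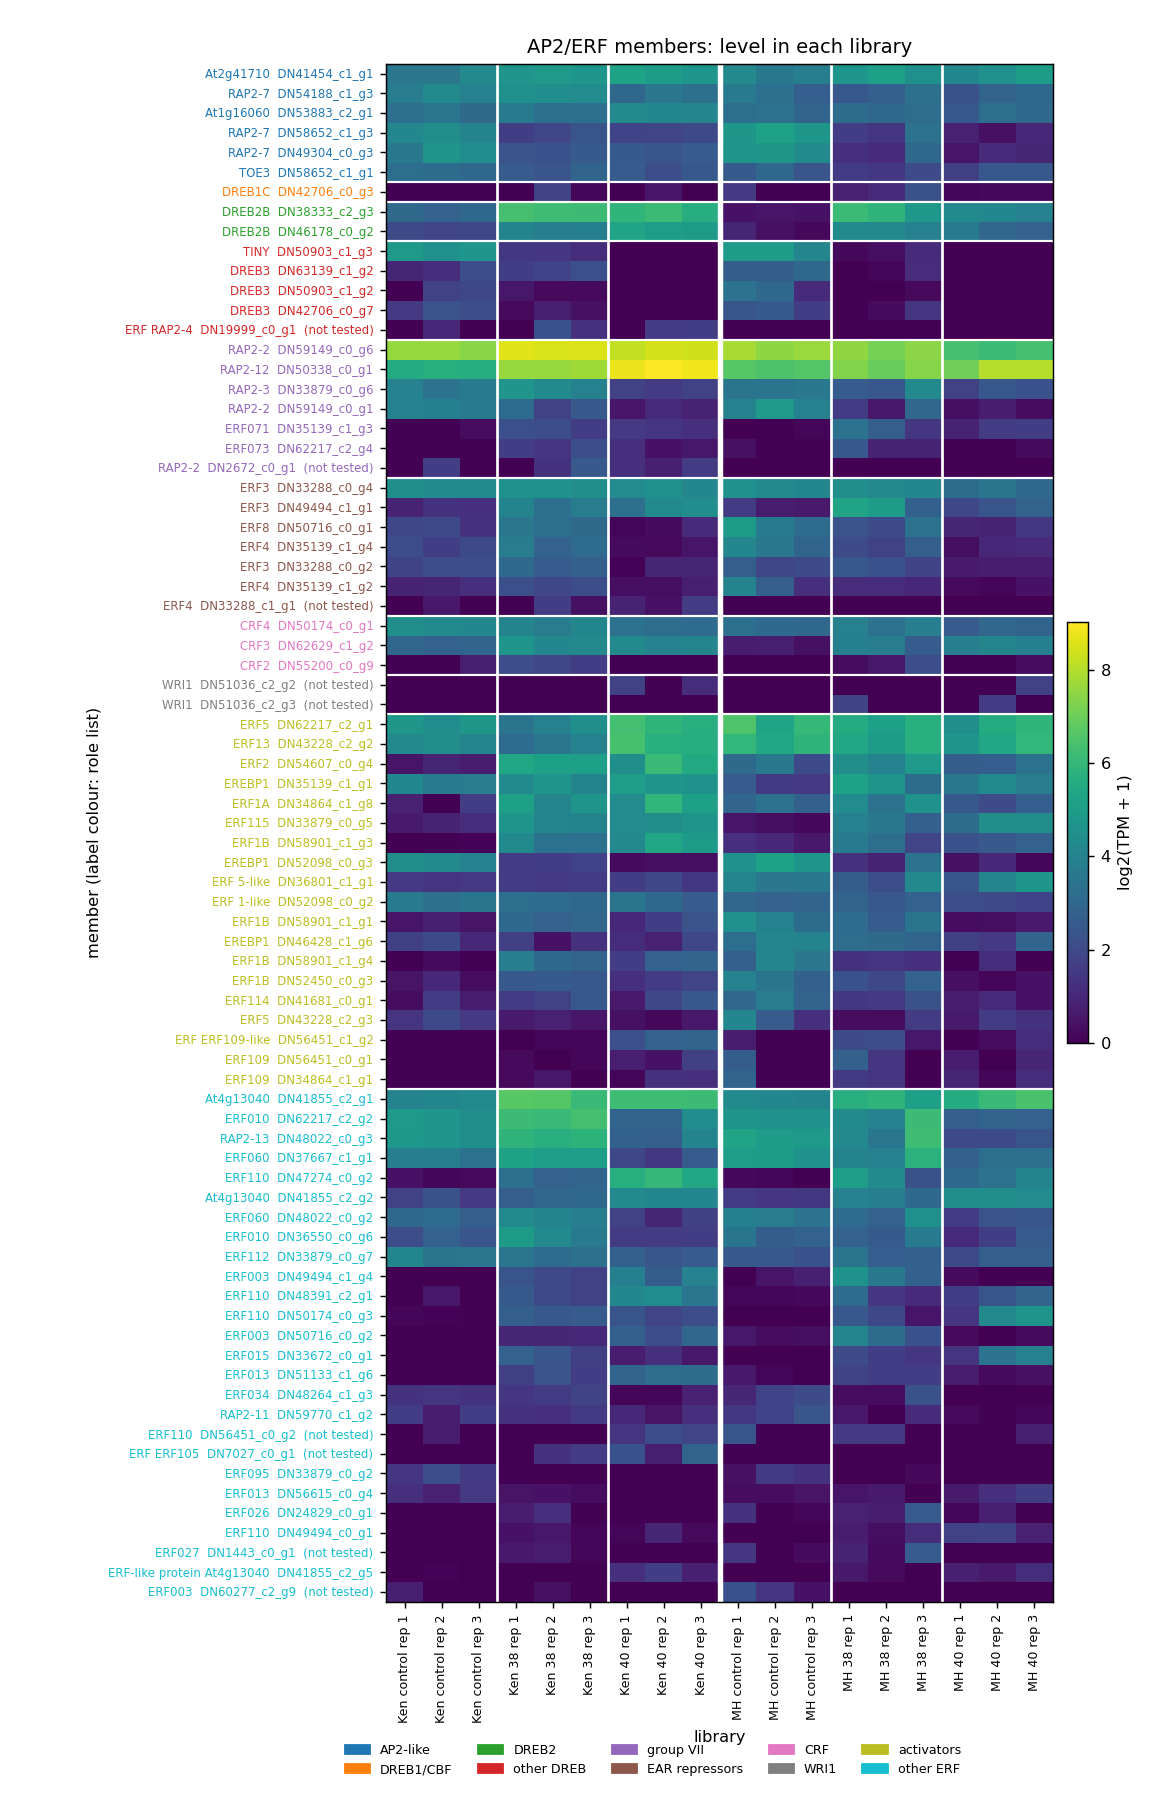
Level of all 78 members in each of the 18 libraries, as log2(TPM + 1), with rows grouped by role list (label colour) and white lines between groups. RAP2-2 and RAP2-12 are the brightest rows, the DREB2B rows brighten in all heated libraries, and the TINY and DREB3 rows are dark in all 6 libraries at 40/35 °C.

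Tests were made on the counts, scaled between libraries by TMM factors (0.684 to 0.725 in Ken control, 1.43 to 1.54 in MH 40). These factors lower a fitted log2 change in heated leaves relative to the ratio of TPM levels, most of all in MH. TPM also depends on the length used for each gene, so a fitted change can exceed the TPM ratio in single genes. Of the 78 members, 69 had enough counts to be tested. The 9 others never exceeded 6.51 TPM in a library: both WRI1 genes, 1 each of RAP2-2, ERF4, ERF110, ERF003 and ERF027, and nr entries of RAP2-4 and ERF105. A member is called where its adjusted p is below 0.05 (edgeR quasi-likelihood test, Benjamini-Hochberg over 70022 tested genes). Since a member could pass the count filter through 1 group alone, counts of calls describe the members and are set beside the share of all tested genes called in the same comparison.

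In Ken 38, 40 of 69 members were called against Ken control (58.0%), 25 higher and 15 lower. Of all tested genes 36.2% were called, 20.3% higher and 15.9% lower, and of those with a description 48.0%, 18.8% higher and 29.2% lower. The median change of the members was 1.04 on the log2 scale, against 0.42 over all tested genes and -0.07 over the 29143 described ones. With members that had no count in a group set to a floor of 3 counts per library, that median was 0.64. The split moved to 37 higher and 7 lower with library totals as the scaling, and to 30 and 10 with TMM factors of described genes. In Ken 40, 56 members were called (81.2%), 30 higher and 26 lower, with a median of 0.69 (0 with the floor) against 0.30 over all tested genes. Beside these, 45.8% of all tested genes were called, 25.1% higher and 20.7% lower, and 55.9% of described ones, 23.4% higher and 32.5% lower.

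In MH, falls outnumbered rises in both heated groups, but not in MH 38 with library totals or TMM factors of described genes as the scaling. In MH 38, 47.4% of all tested genes were called against MH control, 30.1% higher and 17.3% lower, and 53.8% of described ones, 23.2% higher and 30.6% lower. Among members 47 were called (68.1%), 21 higher and 26 lower. Library totals as the scaling gave 28 higher and 18 lower, and TMM factors of described genes 23 and 22. In MH 40, 53 members were called (76.8%), 16 higher and 37 lower, beside 67.4% of all tested genes, 42.7% higher and 24.6% lower. Of described genes, 71.7% were called, 29.7% higher and 42.1% lower. Falls thus outnumbered rises among described genes too, in both heated MH groups. The members' median was -0.55 in MH 38 and -1.70 in MH 40, while the median over all tested genes was 0.73 and 1.03 and that over described genes was -0.08 and -0.29. Another scaling shifted the median of all tested genes, from 0.42 to as much as 0.97 in Ken 38 and from 1.03 to as much as 2.02 in MH 40. Relative to the median of described genes, the members stood at 1.11 to 1.19 in Ken 38, 0.79 to 0.87 in Ken 40, -0.47 to -0.49 in MH 38 and -1.38 to -1.41 in MH 40 under all 5 scalings tried. A scaling shifts members and described genes by nearly the same amount, so this difference could hardly move. It therefore does not test the members' direction.

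**Figure D2:**
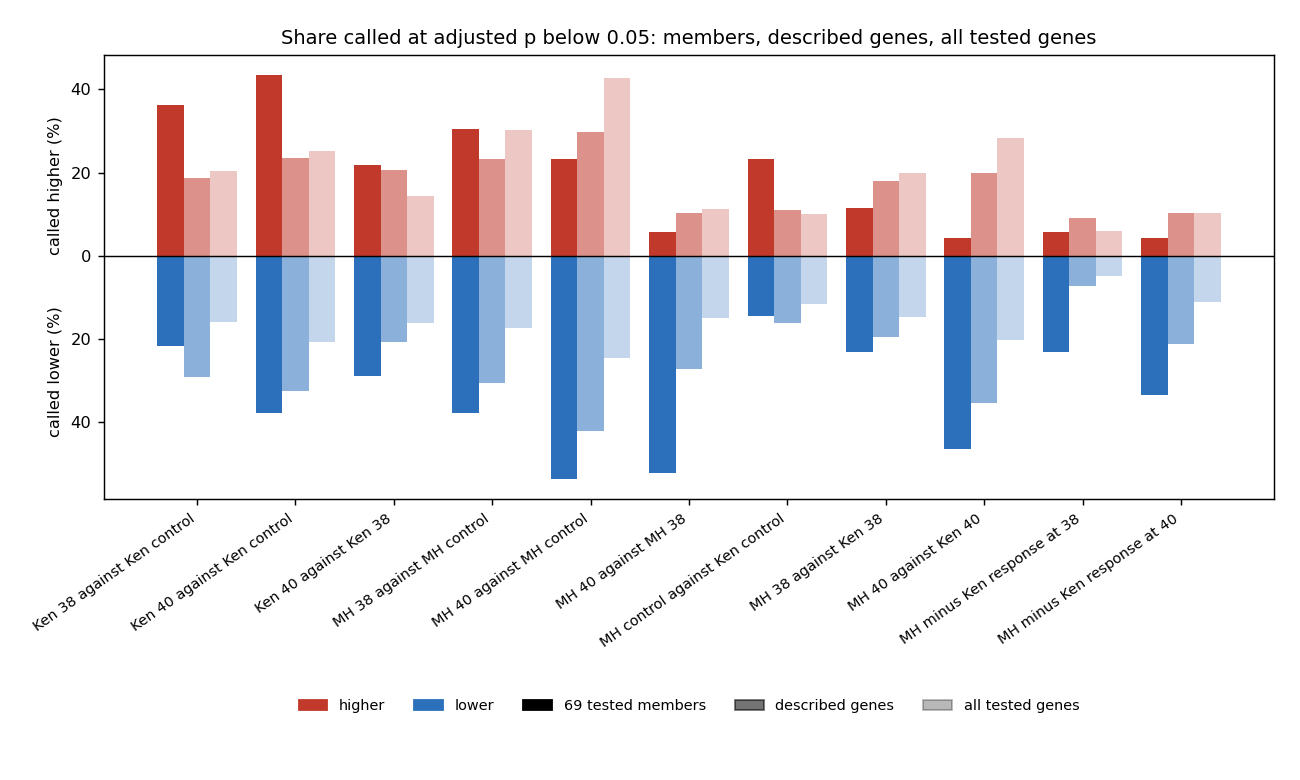
Percentage of the 69 tested members (solid), of described tested genes (paler) and of all tested genes (palest) called higher (red, upward) or lower (blue, downward) in each of 11 comparisons at an adjusted p below 0.05. In MH 40 against MH control 53.6% of members were called lower, beside 42.1% of described genes and 24.6% of all tested genes.

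Group VII held the most abundant members, and its leading pair differed between the materials. RAP2-2 (TRINITY_DN59149_c0_g6), in Arabidopsis an activator of low-oxygen genes, stood at 192, 197 and 169 TPM in Ken control, at 382, 362 and 369 in Ken 38 and at 291, 348 and 332 in Ken 40. In MH it stood at 226, 177 and 203 TPM in the control, at 182, 141 and 173 in MH 38 and at 78.6, 70.0 and 78.6 in MH 40. Every heated Ken library lay above every Ken control, and every MH 40 library lay below every other one. By the fit it rose by 0.51 ± 0.15 (log2 change ± SE) in Ken 38 (adjusted p = 0.00852) and changed by 0.30 ± 0.15 in Ken 40, which did not pass (adjusted p = 0.101, and 0.39 to 0.77 and called with DESeq2, each other scaling and the compared groups alone). It fell by 1.05 ± 0.15 in MH 38 (adjusted p = 7.31e-06, -0.24 and not called with library totals) and by 2.27 ± 0.15 in MH 40 (adjusted p = 5.85e-11). The difference of the responses, MH minus Ken, was -1.57 ± 0.21 at 38/33 °C (adjusted p = 4.78e-05) and -2.57 ± 0.21 at 40/35 °C (adjusted p = 2.22e-08).

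RAP2-12 (TRINITY_DN50338_c0_g1), the closest Arabidopsis relative of RAP2-2 and likewise oxygen-sensing, was the most abundant member at 40/35 °C in both materials, behind RAP2-2 in the other groups. Its level was 45.8, 48.9 and 47.9 TPM in Ken control, 196, 196 and 213 in Ken 38 and 431, 517 and 454 in Ken 40. The MH libraries gave 100.05, 90.1 and 96.4 TPM in the control, 158, 119 and 164 in MH 38 and 131, 255 and 259 in MH 40. The 3 Ken groups did not overlap, and unheated MH lay above unheated Ken. It rose by 1.65 ± 0.21 in Ken 38 (adjusted p = 1.61e-06) and by 2.96 ± 0.22 in Ken 40 (adjusted p = 4.65e-10), and was 1.04 ± 0.21 higher in MH control than in Ken control (adjusted p = 0.000718). In MH the change was -0.12 ± 0.20 at 38/33 °C (adjusted p = 0.649, but 0.69 and called with library totals) and 0.45 ± 0.20 at 40/35 °C (adjusted p = 0.0548). The MH 40 value passed with DESeq2 and each other scaling (0.78 to 1.44), without the filter and without MH 40 replicate 1, the lowest library. The responses differed by -1.77 ± 0.29 and -2.51 ± 0.29 at the 2 temperatures (adjusted p = 0.000374 and 2.24e-06).

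A second RAP2-2 gene of the same assembly component (TRINITY_DN59149_c0_g1) was lower in every heated group. In Ken 38 the first one had risen, whereas in MH both fell. The second stood at 12.50 to 14.45 TPM in Ken control and at 14.70, 27.99 and 14.71 in MH control, and at 0.47 to 1.17 in Ken 40 and 0.22 to 0.62 in MH 40. It fell in all 4 comparisons with control, by 2.72 ± 0.61 and 5.57 ± 0.74 in Ken and by 2.96 ± 0.61 and 6.13 ± 0.75 in MH (adjusted p = 0.00196, 1.07e-05, 0.000897 and 2.23e-06). Its responses in the 2 materials were not found to differ (-0.24 ± 0.82 and -0.55 ± 1.01). RAP2-3 (TRINITY_DN33879_c0_g6) fell in Ken 40 by 2.84 ± 0.48 and in MH 40 by 2.30 ± 0.47 (adjusted p = 0.000145 and 0.00046). ERF071, known in Arabidopsis as the hypoxia-induced HRE2, rose in all 4 comparisons from at most 0.22 TPM in a control library to at most 9.30 TPM in a heated one. Over the list of 7 genes, 6 of them tested, 4 rose and 1 fell in Ken 38, 3 rose and 2 fell in Ken 40, 2 rose and 2 fell in MH 38, and 1 rose and 3 fell in MH 40. Of all tested genes, 20.3% rose and 15.9% fell in Ken 38, and 25.1% and 20.7% in Ken 40. For MH 38 these shares were 30.1% and 17.3%, and for MH 40 42.7% and 24.6%. The list's sum was 260.2 ± 16.1 TPM for Ken control, 604 ± 16.6 for Ken 38 and 798 ± 70.7 for Ken 40 (SD, n = 3), and 327 ± 23.4, 332 ± 53.1 and 296 ± 72.2 for the 3 MH groups.

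**Figure D3:**
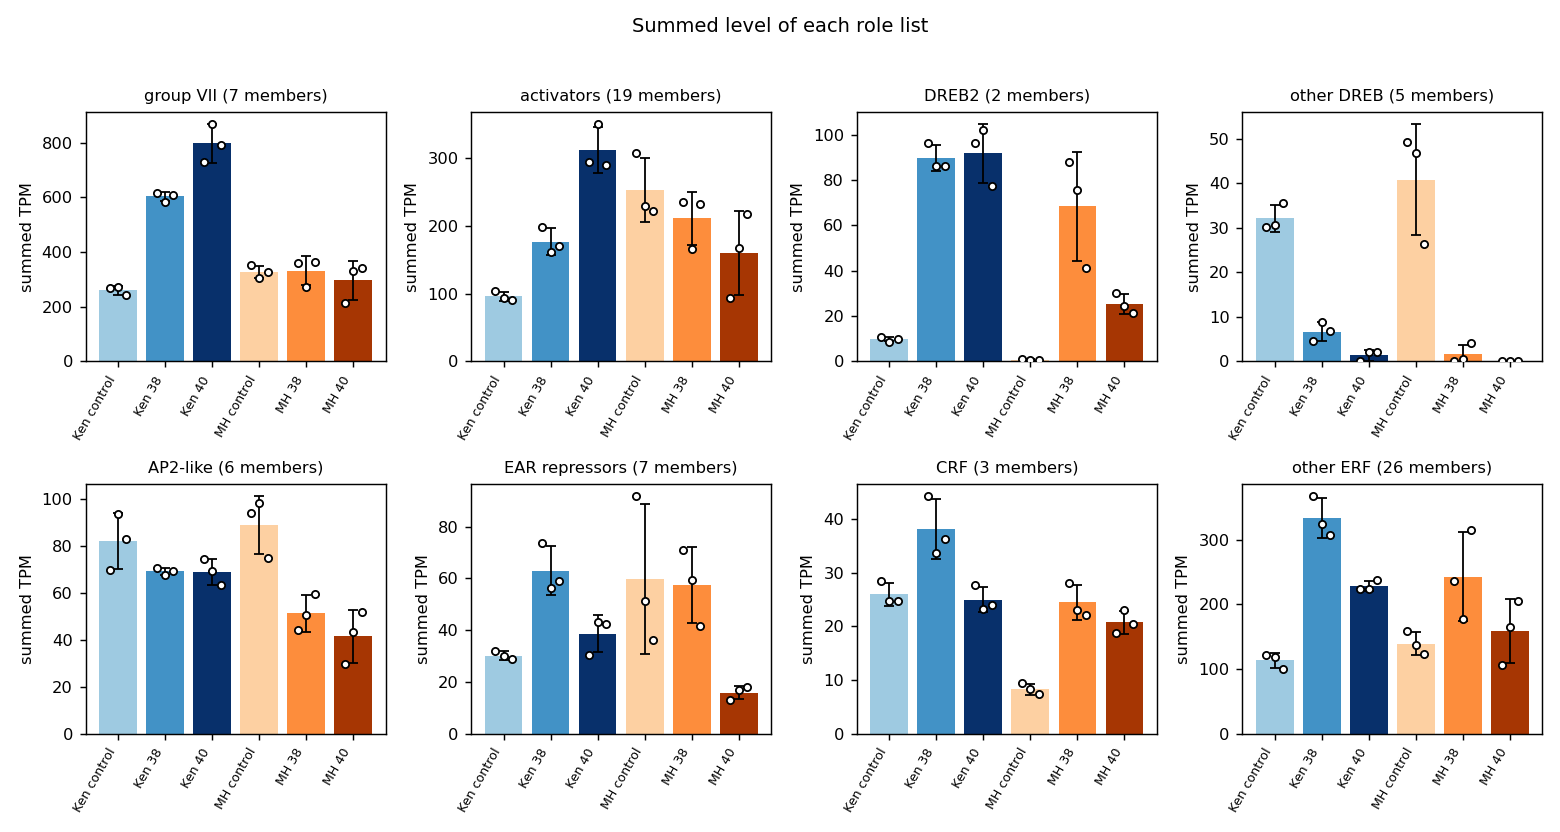
Summed TPM of 8 role lists by group, where bars are means, error bars are the SD of 3 libraries and points are the libraries. The group VII sum goes from 260.2 to 798 TPM across the Ken groups and stays between 213 and 365 TPM in all MH libraries.

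Both DREB2B genes, named after a rice factor that is induced by heat and drought, rose in every heated group. The longer one (TRINITY_DN38333_c2_g3) stood at 7.64, 6.08 and 7.17 TPM in Ken control, at 80.3, 72.8 and 72.1 in Ken 38 and at 59.0, 70.5 and 48.3 in Ken 40. The MH control libraries held 0.37, 0.42 and 0.36 TPM, against 69.4, 57.6 and 27.2 in MH 38 and 18.4, 17.7 and 15.1 in MH 40. No heated library overlapped its control, MH 38 replicate 3 was the lowest of its group, and every MH control library lay below every Ken control library. Its rise was 2.96 ± 0.24 at 38/33 °C and 2.68 ± 0.23 at 40/35 °C in Ken, against 6.25 ± 0.29 and 4.71 ± 0.28 in MH (adjusted p = 1.92e-09, 6.13e-09, 3.16e-12 and 6.23e-12). MH control against Ken control gave a log2 change of -4.11 ± 0.27 (adjusted p = 5.41e-10), and the responses differed by 3.29 ± 0.34 at 38/33 °C and 2.03 ± 0.34 at 40/35 °C (adjusted p = 3.09e-06 and 0.00016). The level reached in MH 38 was nevertheless below that in Ken 38 (-0.82 ± 0.22, adjusted p = 0.00645), and that in MH 40 below that in Ken 40 (-2.08 ± 0.23, adjusted p = 2.14e-07).

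The other DREB2B gene (TRINITY_DN46178_c0_g2) stood at 2.68 to 3.15 TPM in Ken control, 13.5 to 15.8 in Ken 38 and 28.8 to 37.4 in Ken 40, and at 0.13 to 0.91, 14.1 to 18.5 and 6.15 to 11.7 in the 3 MH groups. It went up again from Ken 38 to Ken 40 (1.22 ± 0.32, adjusted p = 0.00728) and down from MH 38 to MH 40 (-1.02 ± 0.32, adjusted p = 0.0253). DREB1C, the 1 gene of the cold-responsive DREB1/CBF class, had counts in 10 of 18 libraries, at most 3.67 TPM, and was called in no comparison (adjusted p = 0.0857 in Ken 38, its lowest against control, and below 0.05 there with library totals or without the filter).

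Of the 5 remaining DREB-type members, 4 were tested, and these fell, 3 of them in all 4 comparisons. The other one, a DREB3 gene, fell in all but Ken 38. TINY (TRINITY_DN50903_c1_g3), which in Arabidopsis restrains growth and responds to stress, stood at 27.5, 21.9 and 25.8 TPM in Ken control and at 30.2, 29.7 and 16.1 in MH control. It stood at 1.27 to 1.73 TPM in Ken 38 and at 0.13, 0.26 and 1.17 in MH 38, where replicate 3 was the highest, and at 0 counts in all 6 libraries at 40/35 °C. It fell by 4.49 ± 0.51 in Ken 38 and by 6.23 ± 0.58 in MH 38 (adjusted p = 1.24e-06 and 1.21e-07). Against a floor of 3 counts per library it was at least 83.5-fold lower in Ken 40 and at least 112-fold lower in MH 40 (adjusted p = 1.31e-08 and 3.86e-09). The 3 DREB3 genes, at most 9.72 TPM in a control library, were also at 0 counts in all 6 libraries at 40/35 °C, at least 4.32-fold to 49.3-fold lower than control in Ken 40 and at least 19.1-fold to 86.9-fold lower in MH 40. All 4 tested genes of the list fell in MH 38, MH 40 and Ken 40, and 3 of 4 in Ken 38. Of all tested genes, 17.3%, 24.6%, 20.7% and 15.9% fell in these comparisons, in the same order. The DREB3 gene not called in Ken 38 (TRINITY_DN63139_c1_g2) had mean levels of 1.89 TPM in Ken control and 2.75 in Ken 38. The untested member, the RAP2-4 entry (TRINITY_DN19999_c0_g1), had means of 0.34 TPM in unheated Ken, 1.75 at 38/33 °C and 1.38 at 40/35 °C. One of the DREB3 genes shares an assembly component with TINY.

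Of the AP2-like list of 6 genes, none was called higher in heated MH and none in Ken 38, while 2 rose in Ken 40. Of all tested genes, 30.1% were called higher in MH 38, 42.7% in MH 40, 20.3% in Ken 38 and 25.1% in Ken 40. RAP2-7 (TRINITY_DN58652_c1_g3), known in Arabidopsis as the flowering repressor TOE1, stood at 17.2, 20.9 and 15.2 TPM in Ken control and 2.15 to 4.07 in both heated Ken groups. It stood at 26.3, 34.5 and 26.2 TPM in MH control, at 2.09, 1.61 and 9.24 in MH 38 and at 0.33 to 0.99 in MH 40. Heated and control libraries did not overlap in either material, and MH 38 replicate 3 again lay nearest to the control. The falls were -2.88 ± 0.57 and -3.52 ± 0.60 in Ken and -3.36 ± 0.58 and -6.13 ± 0.69 in MH (adjusted p = 0.00104, 0.000206, 0.000302 and 2.17e-06). A second RAP2-7 gene (TRINITY_DN49304_c0_g3) fell by 2.78 ± 0.58, 2.58 ± 0.58, 3.34 ± 0.59 and 5.85 ± 0.68, and for both genes the fall at 40/35 °C was larger in MH than in Ken (difference -2.61 ± 0.83 and -3.28 ± 0.83, adjusted p = 0.0357 and 0.0107). TOE3 (TRINITY_DN58652_c1_g1) fell by 1.21 ± 0.35 to 1.94 ± 0.37 over the 4 comparisons (adjusted p = 0.00927 at the highest).

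The third RAP2-7 gene (TRINITY_DN54188_c1_g3) was not called in Ken 38 (0.19 ± 0.25) and fell in Ken 40, MH 38 and MH 40 (-1.32 ± 0.26, -0.78 ± 0.26 and -1.56 ± 0.26). The rises in Ken 40 were At1g16060 (1.80 ± 0.26, adjusted p = 8.63e-06, from a mean of 8.98 to one of 17.4 TPM, a smaller ratio than in the fit) and At2g41710 (0.89 ± 0.19, adjusted p = 0.000573). At2g41710, the most abundant gene of the list and one without a Pfam AP2 domain, stood at 10.86 to 18.03 TPM in Ken control and at 25.2 to 36.1 in heated Ken. Its Ken 38 value of 0.32 was not called, but was with library totals (0.89), TMM factors of described genes (0.60) and the compared groups alone (0.35). Its change in MH was -0.14 in MH 38 and -0.07 in MH 40, not called, and 0.70 and 0.93, called, with library totals as the scaling. TMM factors of described genes gave 0.51 in MH 40, also called.

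**Figure D4:**
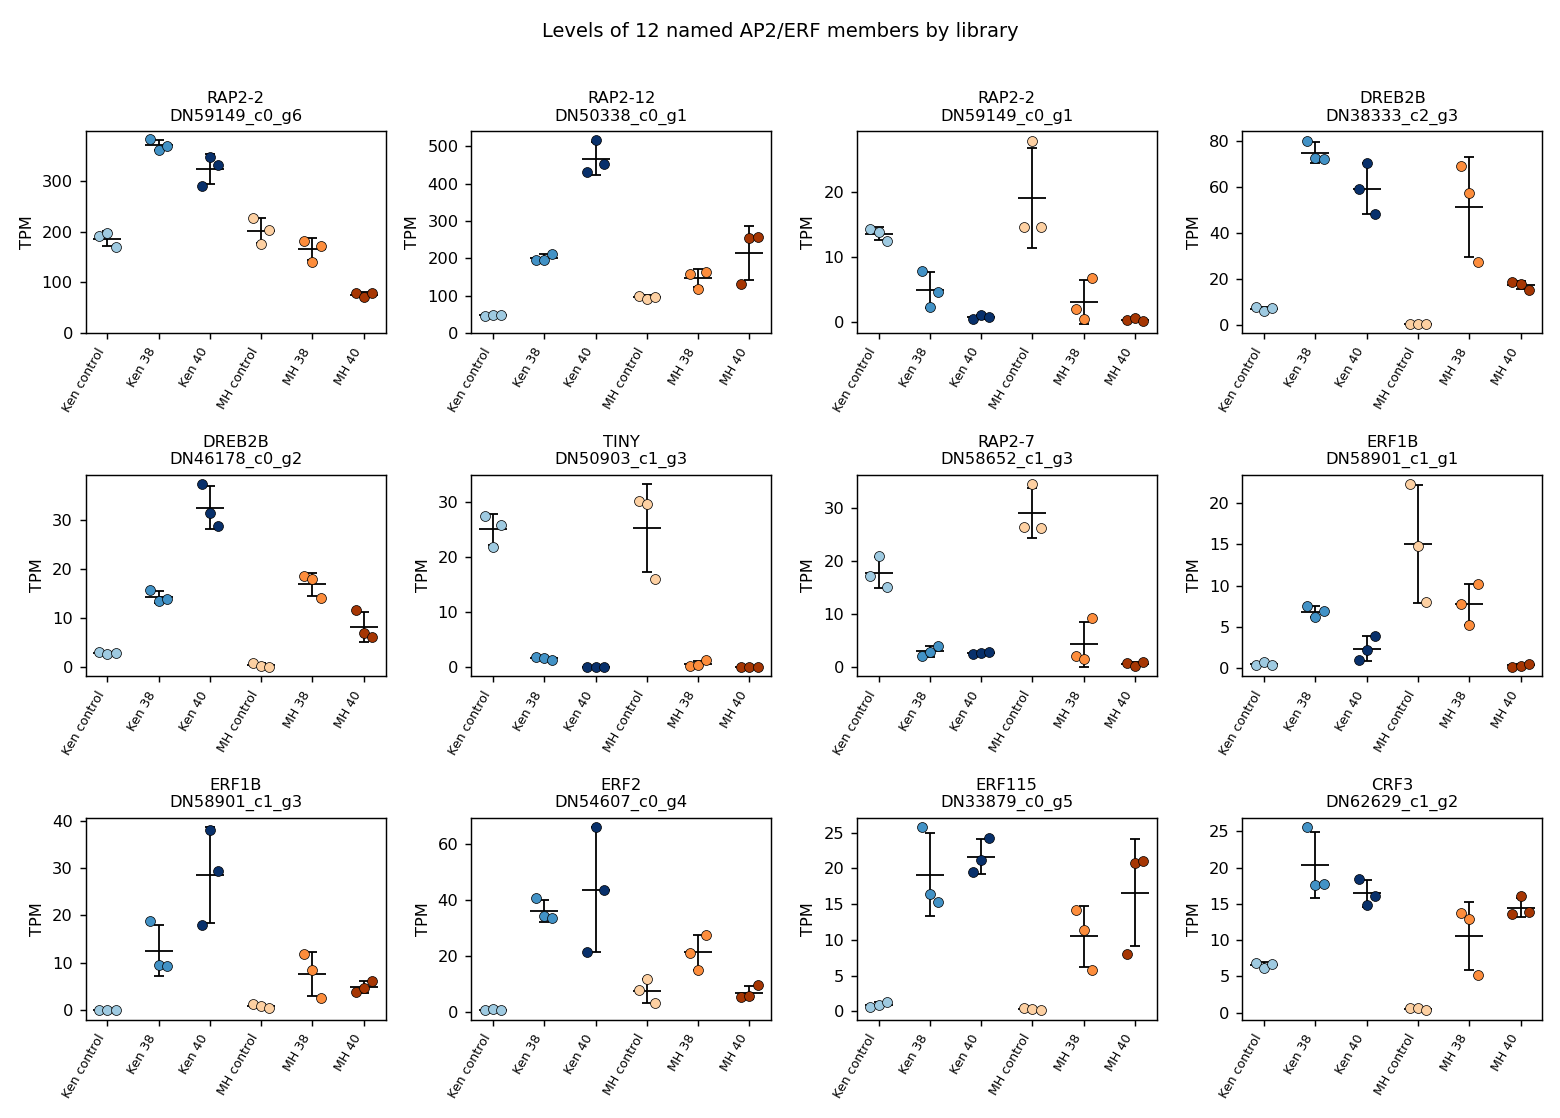
TPM of 12 members in the 3 libraries of each group (points), with the mean (line) and the SD (error bar), each panel on its own scale. DREB2B, ERF115 and CRF3 are above control in every heated library. The means of RAP2-2 (TRINITY_DN59149_c0_g6) and the ERF1B gene TRINITY_DN58901_c1_g1 are above control in heated Ken and below it in heated MH. For both, MH 38 libraries overlap the MH control, and the Ken 40 change of this RAP2-2 gene was not called. The other RAP2-2 gene (TRINITY_DN59149_c0_g1) goes down in both materials.

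Among the 19 genes named after activating ERFs, 3 of the 4 described as ERF1B, the target of EIN3 that joins ethylene and jasmonate signals in Arabidopsis, rose in Ken and fell in MH, and the fourth rose in both. TRINITY_DN58901_c1_g1 stood at 0.42, 0.75 and 0.39 TPM in Ken control, at 7.51, 6.19 and 6.90 in Ken 38 and at 1.02, 2.21 and 3.97 in Ken 40. In MH it stood at 22.3, 14.8 and 8.05 TPM in the control, at 7.81, 5.20 and 10.2 in MH 38 and at 0.22, 0.26 and 0.58 in MH 40. Unheated MH lay above all Ken libraries, MH 38 overlapped its control, and MH 40 lay below it in all 3 libraries. It rose by 3.21 ± 0.54 in Ken 38 and 1.75 ± 0.55 in Ken 40 (adjusted p = 5.57e-05 and 0.0116) and fell by 1.64 ± 0.45 in MH 38 and 6.11 ± 0.59 in MH 40 (adjusted p = 0.00541 and 1.40e-08). The differences of the responses were -4.85 ± 0.70 and -7.87 ± 0.79 (adjusted p = 0.000107 and 3.71e-07).

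The ERF1B gene TRINITY_DN52450_c0_g3 gave 0.24 to 1.05 TPM in Ken control against 5.89 to 14.8 in MH control, rose by 2.58 ± 0.50 and 1.41 ± 0.50 in Ken and fell by 1.94 ± 0.45 and 6.08 ± 0.58 in MH (adjusted p = 0.000279, 0.0253, 0.00154 and 1.12e-08). The differences were -4.52 ± 0.67 and -7.49 ± 0.76. TRINITY_DN58901_c1_g4 stood at 0, 0.21 and 0 TPM in Ken control, 6.27 to 13.5 in Ken 38, 5.86 to 16.3 in MH control and 0 to 1.28 in MH 40. It was called higher in both heated Ken groups and lower in both heated MH groups (adjusted p = 0.00166, 0.00346, 0.00749 and 0.000329). The 3 genes were 4.17 to 7.12 higher in MH control than in Ken control on the log2 scale (adjusted p = 1.37e-06 to 0.000975). The fourth ERF1B gene, TRINITY_DN58901_c1_g3, rose in all 4 comparisons, from 0, 0.04 and 0.07 TPM in Ken control to 18.1, 38.1 and 29.5 in Ken 40 and from 0.53 to 1.36 in MH control to 3.79 to 6.17 in MH 40 (adjusted p = 1.08e-08 and 0.00645), with 3 counts in all in Ken control, too few for a fold.

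ERF2 (TRINITY_DN54607_c0_g4), named after an activator of Nicotiana sylvestris, stood at 0.43, 0.93 and 0.64 TPM in Ken control, at 40.6, 34.1 and 33.4 in Ken 38 and at 21.4, 66.0 and 43.4 in Ken 40. Levels in MH were 7.68, 11.5 and 3.10 TPM in the control, 21.04, 15.03 and 27.5 in MH 38 and 5.28, 5.49 and 9.47 in MH 40. It rose by 5.25 ± 0.53 and 5.60 ± 0.53 in Ken (adjusted p = 2.03e-07 and 7.96e-08). In MH neither value passed: 0.83 ± 0.42 in MH 38 (adjusted p = 0.108) and -0.87 ± 0.43 in MH 40 (adjusted p = 0.0764, but called without the filter and without MH control replicate 3, at -1.27, or MH 40 replicate 3, at -1.20). The MH 38 value passed with library totals (1.62), TMM factors of described genes (1.17), no filter (0.91) and without MH control replicate 2 (1.27). The responses differed by -4.42 ± 0.66 and -6.48 ± 0.68 (adjusted p = 0.000245 and 1.60e-06).

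ERF5 and ERF13, the most abundant activators, stood at 20.4 to 26.4 and 16.2 to 21.0 TPM in Ken control, at 50.2 to 78.7 and 47.5 to 82.0 in Ken 40, and at 37.3 to 90.7 and 41.0 to 61.6 in MH control. ERF13 (TRINITY_DN43228_c2_g2) fell in Ken 38 by 1.17 ± 0.33 and rose in Ken 40 by 1.30 ± 0.32 (adjusted p = 0.00836 and 0.00265), the Ken 38 fall being lost without Ken 38 replicate 1 and with library totals. Its fall in MH 38 (-1.10 ± 0.32) was lost with library totals, and that in MH 40 (-1.01 ± 0.32) with DESeq2 and each other scaling. ERF5 (TRINITY_DN62217_c2_g1) was not called in Ken 38 (-0.72 ± 0.41, adjusted p = 0.182) or in Ken 40 (0.69 ± 0.40, adjusted p = 0.181), although its Ken 40 libraries lay above the controls in TPM. Its Ken 40 value was called with library totals (1.16), no filter (0.72) and the compared groups alone (0.78), and its Ken 38 value with the latter pair of settings. It fell in MH 38 and MH 40 (-1.26 ± 0.41 and -1.70 ± 0.41, adjusted p = 0.0192 and 0.00207). Both falls were lost with library totals, and the first also with the compared groups alone and without MH control replicate 1 (-0.66) or MH 38 replicate 1 or 2. ERF115, known in Arabidopsis for stem cell division and regeneration in roots, stood at no more than 1.29 TPM in a control library and at 5.83 to 25.8 in heated ones. It rose in all 4 comparisons, by 3.96 ± 0.42 to 5.19 ± 0.47 (adjusted p = 4.12e-07 at the highest).

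Over the activator list, 7 rose and 4 fell in Ken 38, 10 rose and 3 fell in Ken 40, 3 rose and 10 fell in MH 38, and 3 rose and 11 fell in MH 40. Of all tested genes, 20.3% were called higher and 15.9% lower in Ken 38, 25.1% and 20.7% in Ken 40, 30.1% and 17.3% in MH 38, and 42.7% and 24.6% in MH 40. In the controls 10 of the 19 were higher in MH than in Ken and 3 lower, beside 10.1% and 11.7% of all tested genes. The list's sum was 96.1 ± 7.09 TPM in Ken control and 311 ± 34.1 in Ken 40, and 252 ± 47.3 in MH control and 159 ± 61.9 in MH 40 (SD, n = 3). Its 3 EREBP1 genes, pathogen-responsive in rice, entered by their number 1. One of them (TRINITY_DN35139_c1_g1) rose in MH 38 and MH 40 by 2.21 ± 0.47 and 1.63 ± 0.46 (adjusted p = 0.00153 and 0.00624), and another (TRINITY_DN52098_c0_g3) fell in all 4 comparisons. The third (TRINITY_DN46428_c1_g6) stood at 0.37 to 2.29 TPM in Ken 38 and 6.46 to 8.24 in MH 38, higher in MH by 2.25 ± 0.71 (adjusted p = 0.0173). That call was lost without Ken 38 replicate 2 or 3 or MH 38 replicate 1.

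An nr entry of an ERF109-like factor (TRINITY_DN56451_c1_g2) had no count in Ken control, 2 counts in all in Ken 38 and 3.63, 6.07 and 6.49 TPM in Ken 40. It was higher in Ken 40 than in Ken control, at least 12.6-fold, and than in Ken 38 (adjusted p = 0.000394 and 0.00119). The nr entry of an ERF5-like factor (TRINITY_DN36801_c1_g1) stood at 1.59 to 2.81 TPM across the Ken groups. In MH it stood at 10.82 to 16.1 in MH control, at 5.31, 3.50 and 17.8 in MH 38 and at 4.30, 16.1 and 25.7 in MH 40. It was called in no comparison with control. It was higher in MH than in Ken at 38/33 °C (2.01 ± 0.59, adjusted p = 0.0118, but 0.87 and not called without MH 38 replicate 3) and at 40/35 °C (2.43 ± 0.59, adjusted p = 0.00196).

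The list of genes numbered as EAR repressors, a class that in Arabidopsis and tobacco shuts down GCC-box promoters, was led by ERF3 (TRINITY_DN33288_c0_g4). It stood at 18.2 to 21.4 TPM in Ken control, 17.0 to 23.2 in heated Ken, 16.6 to 22.8 in MH control and 17.0 to 21.0 in MH 38, and at 8.03, 10.0 and 7.55 in MH 40, below all other libraries. By the fit it fell in MH 40 (-1.91 ± 0.18, adjusted p = 1.39e-08) and in MH 38 (-0.75 ± 0.18, adjusted p = 0.00193), the latter turning to 0.084 with library totals and lost with TMM factors of described genes (-0.38). ERF8 (TRINITY_DN50716_c0_g1) stood at 1.42 to 2.98 TPM in Ken control, 7.75 to 10.9 in Ken 38 and 0.10 to 1.08 in Ken 40, and fell from Ken 38 to Ken 40 by 4.08 ± 0.65 (adjusted p = 0.000115). An ERF4 gene named after a tobacco protein, which is an activator in tobacco and fell into this list by its number (TRINITY_DN35139_c1_g4), fell over the same step by 4.98 ± 0.60 (adjusted p = 2.46e-06). The other tested ERF4 gene (TRINITY_DN35139_c1_g2) stood at 15.5, 5.68 and 1.39 TPM in MH control and at 1.22, 1.23 and 1.01 in MH 38. It fell in MH 38 by 3.41 ± 0.61 (adjusted p = 0.000117) with MH control replicate 3 close to the heated libraries. Of the 6 tested genes, 1 rose in Ken 38, 1 rose and 4 fell in Ken 40 and in MH 38, and 1 rose and 5 fell in MH 40. In each case the riser was the second ERF3 gene (TRINITY_DN49494_c1_g1). Of all tested genes, 20.3% rose and 15.9% fell in Ken 38, and 25.1% and 20.7% in Ken 40. For MH 38 these shares were 30.1% and 17.3%, and for MH 40 42.7% and 24.6%.

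The cytokinin response factors, which in Arabidopsis act in leaf development and stress, did not move together. CRF3 (TRINITY_DN62629_c1_g2) stood at 6.86, 6.20 and 6.76 TPM in Ken control, 17.6 to 25.6 in Ken 38 and 14.8 to 18.5 in Ken 40. Unheated MH held 0.63, 0.69 and 0.32 TPM, MH 38 held 13.7, 12.9 and 5.13 and MH 40 held 13.6, 16.03 and 13.8. Heated and control libraries overlapped in neither material, and MH 38 replicate 3 was the lowest heated library. It rose by 1.08 ± 0.28 and 0.93 ± 0.27 in Ken and by 3.62 ± 0.32 and 4.09 ± 0.32 in MH (adjusted p = 0.00367, 0.00804, 1.06e-08 and 5.95e-10), the responses differing by 2.55 ± 0.41 and 3.15 ± 0.41 (adjusted p = 0.000299 and 8.44e-06). CRF4 (TRINITY_DN50174_c0_g1) fell in Ken 38 and Ken 40 (-0.83 ± 0.22 and -1.55 ± 0.23) and in MH 40 (-1.04 ± 0.23, adjusted p = 0.000496), and the Ken 38 and MH 40 falls were not called with library totals, nor was that in MH 40 with TMM factors of described genes (-0.45). In MH 38 its change was -0.01 (0.80, called, with library totals).

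The 26 other ERFs, 22 of them tested, held members with their highest TPM at 38/33 °C and members that went on rising. At4g13040 (TRINITY_DN41855_c2_g1), an Arabidopsis protein known from disease defence, stood at 15.3, 16.7 and 18.9 TPM in Ken control, 68.1 to 102 in Ken 38 and 71.8 to 73.9 in Ken 40, and at 15.96 to 19.00, 33.4 to 56.98 and 46.5 to 86.1 in the 3 MH groups. It rose in all 4 comparisons, by 1.87 ± 0.21 and 1.65 ± 0.21 in Ken and by 0.69 ± 0.21 and 1.15 ± 0.21 in MH (adjusted p = 3.27e-07, 1.39e-06, 0.00976 and 6.14e-05). ERF110 (TRINITY_DN47274_c0_g2) rose from at most 0.36 TPM in a control library to 41.5 to 63.5 in Ken 40, and from at most 0.13 to 7.55 to 15.6 in MH 40 (adjusted p = 8.72e-07 and 4.96e-06).

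ERF112 (TRINITY_DN33879_c0_g7) stood at 10.3 to 16.7 TPM in unheated Ken, 7.90 to 10.5 at 38/33 °C and 4.33 to 5.75 at 40/35 °C. It fell in Ken 40 by 1.71 ± 0.30 (adjusted p = 8.68e-05). In MH it was called in neither heated group (0.03 and -0.58).

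ERF010, RAP2-13 and 2 ERF060 genes had their highest Ken levels in TPM at 38/33 °C and fell by 40/35 °C. By the fit, none of these genes was called in Ken 38 against Ken control. ERF010 (TRINITY_DN62217_c2_g2) stood at 20.9 to 28.3 TPM in Ken control, 66.3 to 80.8 in Ken 38 and 6.37 to 20.6 in Ken 40. MH control held 22.35 to 24.19 TPM, MH 38 held 18.3, 14.9 and 70.7, and MH 40 held 5.61 to 6.45. MH 38 replicate 3 lay at the level of Ken 38, and the other 2 lay below MH control. The fall from Ken 38 to Ken 40 was 2.63 ± 0.60 and that from MH 38 to MH 40 was 2.70 ± 0.60 (adjusted p = 0.00494 and 0.00557). Without MH 38 replicate 3, ERF010 fell in MH 38 against MH control by 1.21 and RAP2-13 by 1.94 (both called), where all 3 libraries gave -0.08 and -0.55 (neither called). The ERF060 gene TRINITY_DN37667_c1_g1 stood at 31.2 to 36.4 TPM in Ken 38 and 1.77 to 4.97 in Ken 40, a fall of 3.30 ± 0.52 (adjusted p = 0.000314). RAP2-13 (TRINITY_DN48022_c0_g3) stood at 49.4 to 56.6 TPM in Ken 38, 5.63 to 15.3 in Ken 40 and 3.01 to 4.05 in MH 40. Its Ken 40 fall of 1.87 ± 0.61 and that of ERF010, 1.58 ± 0.58 (adjusted p = 0.0237 and 0.0388), were both lost with library totals, without the filter, and without Ken control replicate 1 or 2 or Ken 40 replicate 1 or 2, and that of ERF010 also without Ken control replicate 3, with TMM factors of described genes and with the compared groups alone.

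The ERF003 genes TRINITY_DN50716_c0_g2 and TRINITY_DN49494_c1_g4 and the ERF013 gene TRINITY_DN51133_c1_g6 had 0 counts in Ken control and were lower in MH 40 than in Ken 40. A different ERF013 gene (TRINITY_DN56615_c0_g4) had 48 counts in all in Ken control, 0 in Ken 40 and 35 in MH 40. ERF003 (TRINITY_DN50716_c0_g2) stood at 0.94 to 1.05 TPM in Ken 38 and 5.76, 3.52 and 6.82 in Ken 40, at least 22.4-fold higher than control. MH control held 0.24 to 0.49 TPM, MH 38 held 16.2, 8.11 and 3.84, and MH 40 held 0.16, 0 and 0.19. MH 40 against Ken 40 gave a log2 change of -5.73 ± 0.71 (adjusted p = 1.90e-06). ERF013 (TRINITY_DN51133_c1_g6) stood at 6.57 to 8.31 TPM in Ken 40, at least 39.0-fold above control, and at 0.21 to 0.63 in MH 40 (-4.63 ± 0.67 against Ken 40, adjusted p = 1.25e-05). Another ERF003 gene (TRINITY_DN49494_c1_g4), also without a count in Ken control, stood at 13.95, 5.24 and 15.03 TPM in Ken 40, at least 14.2-fold above control. It stood at 23.7, 11.5 and 5.99 TPM in MH 38 and had 1 count in all in MH 40, lower than in MH 38 and in Ken 40 (adjusted p = 3.75e-05 and 7.85e-06), too few for a fold.

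The second step of the heat sequence was tested within each material, and the difference between the steps of the 2 materials was not tested. From Ken 38 to Ken 40, 35 of 69 members were called, 15 higher and 20 lower, beside 30.5% of all tested genes and 41.1% of described ones. From MH 38 to MH 40, 40 were called, 4 higher and 36 lower, beside 26.2% of all tested genes, 11.2% of them higher. That count was 25, all lower, when those 2 groups were fitted alone, 26, all lower, without MH 40 replicate 2, and 32 without MH 38 replicate 3. The members' median over the step was -0.30 in Ken and -1.70 in MH, where that of all tested genes was -0.02 and 0.15. The 4 members higher in MH 40 than in MH 38 were RAP2-12, 1 ERF110 gene, ERF015 and the At4g13040 gene TRINITY_DN41855_c2_g2, the last lost without MH 38 replicate 3 or any 1 of the MH 40 libraries.

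Unheated, 26 members differed between MH and Ken, 16 higher and 10 lower in MH (18 and 7 with RLE size factors). Of all tested genes 21.8% differed, 10.1% higher and 11.7% lower, and of described genes 27.3%, 11.1% higher and 16.2% lower. At 38/33 °C, 24 differed, 8 higher and 16 lower, beside 34.7% of all tested genes, of which 19.9% were higher. That count rests on which libraries enter: it was 38 (10 higher, 28 lower) without MH 38 replicate 3, 12 to 14 without Ken 38 replicate 1 or 2 or without MH 38 replicate 1 or 2, and 16 (9 higher, 7 lower) with library totals. At 40/35 °C, 48.5% of all tested genes differed, 28.2% higher and 20.3% lower in MH, and 55.1% of described ones, 19.8% higher and 35.3% lower. Among members 35 differed, 3 higher and 32 lower. Library totals gave 9 higher and 26 lower, and TMM factors of described genes 7 and 27. Higher in MH 40 were ERF015 (TRINITY_DN33672_c0_g1), at 1.62, 9.70 and 14.2 TPM against 0.54 to 1.31 in Ken 40 (2.97 ± 0.62, adjusted p = 0.000564), the nr entry of an ERF5-like factor and 1 ERF013 gene, the last at 0 counts in Ken 40.

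The responses to heat were then compared by the interaction of material and temperature. At 38/33 °C, 10.8% of all tested genes responded differently, and 16.4% of described ones (9.08% higher and 7.31% lower in MH). Among members 20 (29.0%) did so, 4 with the higher value in MH and 16 with the lower. Without MH 38 replicate 3 there were 39, 8 higher and 31 lower. At 40/35 °C, 26 members (37.7%) responded differently, 3 higher and 23 lower, beside 21.4% of all tested genes, 10.3% higher and 11.1% lower. Described genes also leaned to lower values in MH: 31.3% were called, 10.2% higher and 21.1% lower. The responses were also set side by side by their calls. The shares of all tested genes that moved alike or in opposite directions were not computed, so these counts describe the members alone. Of all tested genes, 36.2% were called in Ken 38, 47.4% in MH 38, 45.8% in Ken 40 and 67.4% in MH 40. At 38/33 °C, 17 members rose in both materials, out of 25 rises in Ken and 21 in MH, and 12 fell in both, out of 15 and 26. The 4 that rose in Ken and fell in MH were 3 ERF1B genes and RAP2-2 (TRINITY_DN59149_c0_g6), each with a called difference. At 40/35 °C, 15 rose in both materials, out of 30 and 16, and 24 fell in both, out of 26 and 37. There 6 rose in Ken and fell in MH, 3 ERF1B genes with ERF003, ERF1A and ERF13, again each with a called difference. The MH 40 fall of ERF13 was lost with DESeq2 and each other scaling. That of ERF003 (TRINITY_DN50716_c0_g2) rests on few counts, 17 in all in MH control and 6 in MH 40.

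**Figure D5:**
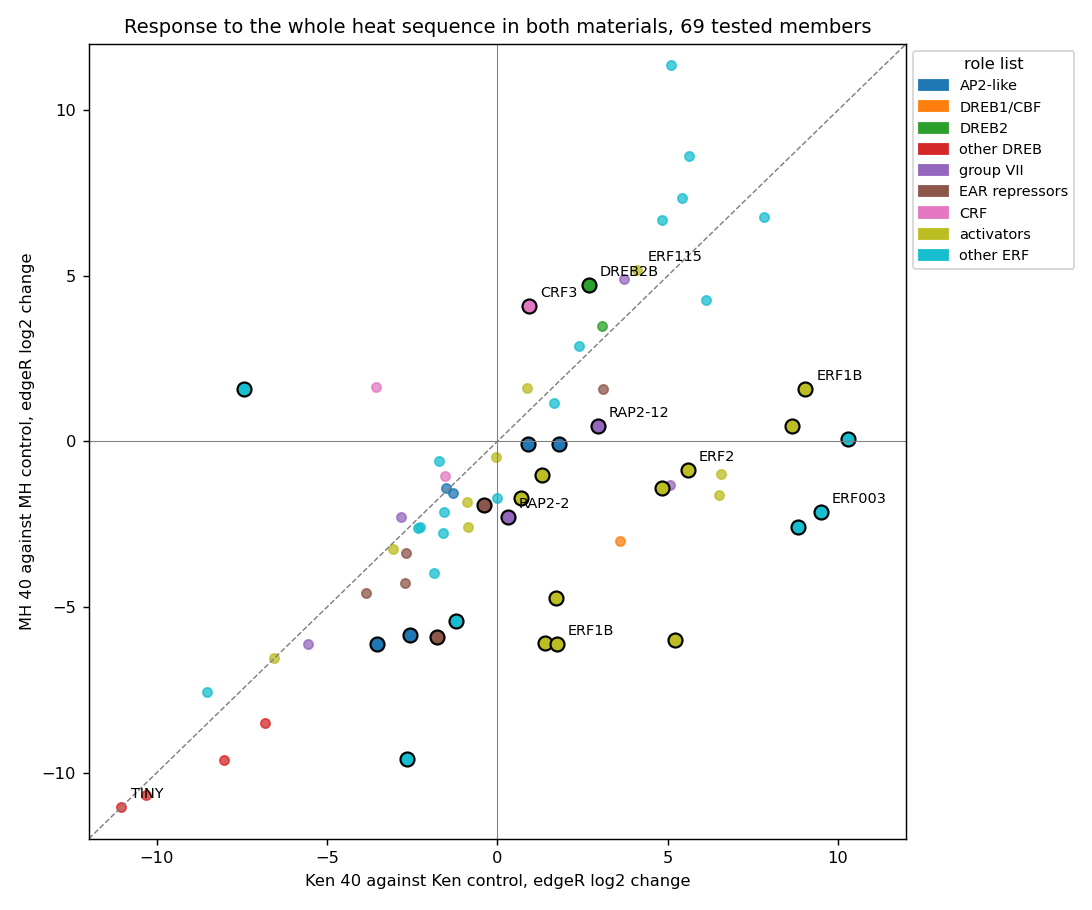
Fitted log2 change of the 69 tested members in Ken 40 against Ken control (x axis) and in MH 40 against MH control (y axis), coloured by role list, with large outlined points where the difference of the responses was called and a dashed line of equal change. Most outlined points (23 of 26) lie below the line, with RAP2-2, RAP2-12, ERF2 and ERF1B among them, and DREB2B and CRF3 lie above it.

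Genes that act before and after these factors were read from lists of 54 genes by description, none of them members. Their counts are set beside the shares of all tested genes, of which 20.3% rose and 15.9% fell in Ken 38, 25.1% and 20.7% in Ken 40, 30.1% and 17.3% in MH 38, and 42.7% and 24.6% in MH 40. Of 10 genes for EIN2, EIN3/EIL and EBF, which carry the ethylene signal to the nucleus, 4 rose and 1 fell in Ken 38, 5 rose and 2 fell in Ken 40, 0 rose and 1 fell in MH 38, and 1 rose and 5 fell in MH 40. EIN3 (TRINITY_DN60110_c0_g6) had 58.9 ± 5.24 TPM in unheated Ken, 189 ± 18.9 at 38/33 °C and 176 ± 1.9 at 40/35 °C (SD, n = 3) and rose by 1.19 ± 0.18 and 1.17 ± 0.18 (adjusted p = 2.00e-05 and 1.89e-05). In MH it stood at 66.3 ± 4.70, 93.7 ± 21.3 and 96.1 ± 20.9 TPM and was not called (-0.20 and -0.22, or 0.60 and 0.77, both called, with library totals, and 0.36 in MH 40, called, with TMM factors of described genes). Without MH 38 replicate 3 it was called lower in MH 38 (-0.48). EBF1 (TRINITY_DN61174_c0_g2), whose product degrades EIN3, rose in Ken 40 by 1.95 ± 0.18 and fell in MH 40 by 1.55 ± 0.18, a difference of -3.50 ± 0.25 (adjusted p = 4.83e-09). EIN2 (TRINITY_DN59086_c0_g3) passes the signal from the receptors to EIN3. It went from 18.85 ± 1.07 to 9.06 ± 0.86 TPM in Ken 40, a fall of 1.40 ± 0.15 (adjusted p = 1.15e-07). It was not called in MH 40 (0.25 ± 0.15), and the responses differed by 1.65 ± 0.21 (adjusted p = 5.73e-06).

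Of 13 genes for ethylene receptors and CTR1, the kinase that holds the pathway off, 7 rose and 2 fell in Ken 40 and 7 rose and 5 fell in MH 40. An ETR2 receptor gene (TRINITY_DN53619_c0_g1) stood at 3.81 ± 0.57, 28.4 ± 3.75 and 69.3 ± 10.98 TPM across the Ken groups and at 6.58 ± 0.66, 45.8 ± 24.7 and 30.4 ± 2.56 across the MH groups, and rose in all 4 comparisons. Another ETR2 gene (TRINITY_DN55336_c0_g1) rose in MH 40 from 2.12 ± 0.81 to 12.4 ± 3.56 TPM (1.71 ± 0.29, adjusted p = 3.27e-05). The ETR2 gene TRINITY_DN55336_c0_g2, of the same component, went from 8.71 ± 2.44 to 4.88 ± 1.99 TPM in MH 40, where it fell by 1.59 ± 0.24. It went from 5.71 ± 0.29 to 18.03 ± 3.19 in Ken 40, where it rose by 1.24 ± 0.24 (adjusted p = 9.93e-06 and 0.000237).

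The most abundant gene of the list, a CTR1 gene (TRINITY_DN58952_c0_g5), stood at 39.6 ± 4.68, 59.6 ± 2.95 and 76.4 ± 5.20 TPM across the Ken groups and at 25.5 ± 1.68, 62.6 ± 23.1 and 81.7 ± 6.74 across the MH groups. It rose in Ken 40, MH 38 and MH 40 by 0.55 ± 0.17, 0.56 ± 0.17 and 0.93 ± 0.17 (adjusted p = 0.0117, 0.0112 and 7.93e-05). The Ken 40 call was lost without Ken control replicate 3 (0.48). The MH 38 call was lost without MH 38 replicate 2 (0.38) and with the compared groups alone. The Ken 38 value of 0.12 was called with library totals (0.69). A second CTR1 gene (TRINITY_DN63447_c2_g1) fell in Ken 40 by 0.94 ± 0.17 and rose in MH 40 by 0.98 ± 0.17 (adjusted p = 0.000146 and 5.29e-05), with mean levels of 12.1 and 14.9 TPM in Ken control and Ken 40.

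ACC synthases and oxidases make ethylene, but no gene described as a synthase had enough counts to be tested. Most of the 8 tested genes are described as ACC oxidase homologs, whose part in making ethylene was not tested. Of these 8, 2 rose and 3 fell in Ken 40 and 2 rose and 4 fell in MH 40. The most abundant, an ACC oxidase homolog (At1g06650, TRINITY_DN50944_c0_g1), rose from 149 ± 9.87 to 1322 ± 58.95 TPM in Ken 40 and from 88.96 ± 19.3 to 1356 ± 546 in MH 40 (2.75 ± 0.31 and 3.19 ± 0.32, adjusted p = 4.04e-06 and 5.80e-07). The other gene to rise was ACO1 (TRINITY_DN53500_c1_g1), chosen after its values were seen. It went from 1.82 ± 0.35 to 886 ± 152 TPM in Ken 40 and from 1.55 ± 0.56 to 296 ± 159 in MH 40 (8.65 ± 0.96 and 6.87 ± 0.90, adjusted p = 1.22e-05 and 2.91e-05). Another ACC oxidase (TRINITY_DN45441_c2_g2) fell from 74.3 ± 2.28 to 0.41 ± 0.08 TPM in Ken and from 32.5 ± 10.2 to 0.74 ± 0.26 in MH (-8.26 ± 0.56 and -7.06 ± 0.54, adjusted p = 1.76e-08 and 2.91e-08).

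Of 8 oxygen-sensing genes, the plant cysteine oxidases, ATE and PRT6 that mark group VII ERFs for degradation, 3 rose in Ken 38, 6 rose in Ken 40, 3 rose and 1 fell in MH 38, and 3 rose and 1 fell in MH 40. ATE2 (TRINITY_DN51301_c0_g1) stood at 21.5 ± 1.67 and 61.4 ± 8.46 TPM in Ken control and Ken 40 and at 9.80 ± 0.89 and 30.1 ± 3.63 in MH control and MH 40 (1.37 ± 0.15 and 1.01 ± 0.15, adjusted p = 1.08e-07 and 3.91e-06). The PCO2 gene TRINITY_DN62898_c0_g1 fell in MH 40 by 0.52 ± 0.22 (adjusted p = 0.041), which was lost with DESeq2, RLE size factors, no filter, the replicate block and most left-out libraries, and turned to 0.47 with library totals and 0.054 with TMM factors of described genes.

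HSFA3 (TRINITY_DN52649_c2_g1), the heat factor that DREB2A switches on in Arabidopsis, rose in MH from 10.3 ± 1.07 TPM to 116 ± 13.1 at 38/33 °C and 98.7 ± 15.9 at 40/35 °C (3.06 ± 0.35 and 2.86 ± 0.34, adjusted p = 4.57e-06 and 3.43e-06). In Ken it stood at 50.1 ± 8.87, 48.8 ± 11.3 and 32.7 ± 24.5 TPM and did not rise (-0.36 ± 0.32 and -0.86 ± 0.32, the latter called at an adjusted p of 0.0386 and lost with DESeq2, each other scaling, no filter and several left-out libraries). Its responses differed by 3.42 ± 0.47 and 3.72 ± 0.47 (adjusted p = 0.000245 and 3.64e-05). DRIP2 (TRINITY_DN52888_c0_g3) is a ligase that marks DREB2A for degradation in Arabidopsis. It rose in Ken 40 from 11.4 ± 1.49 to 41.7 ± 3.98 TPM (1.47 ± 0.19, adjusted p = 1.44e-06) and was not called in MH 40 (0.05 ± 0.18).

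The dehydrin COR410 (TRINITY_DN51367_c1_g6), of a class that carries dehydration-responsive elements in other plants, rose from 65.4 ± 10.3 to 699.6 ± 57.8 TPM in Ken 40 and from 81.4 ± 17.3 to 423 ± 38.9 in MH 40 (3.02 ± 0.18 and 1.64 ± 0.17, adjusted p = 1.93e-11 and 4.80e-08). Of 9 dehydrin and LEA genes, 6 rose in Ken 38, 5 rose and 2 fell in Ken 40, and 6 rose and 1 fell in each heated MH group. A Lea5-D-like gene (TRINITY_DN57696_c0_g3) rose in MH 40 from 1.49 ± 0.73 to 38.4 ± 3.95 TPM (3.50 ± 0.30, adjusted p = 2.32e-09). LEA5-D (TRINITY_DN57696_c0_g4), of the same component, fell in Ken 40 from 12.6 ± 1.99 to 3.43 ± 2.70 TPM and in MH 40 from 11.2 ± 2.32 to 0.10 ± 0.18 (-2.18 and -7.15, adjusted p = 0.0187 and 1.51e-05). The Ken 40 fall was lost without Ken control replicate 1 or 2 or Ken 40 replicate 2 or 3.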

How the data were processed

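The authors deposited 1 table with an estimated count and a TPM value per assembled gene and library. The estimated count values are unnormalised reads per gene made by the authors (89.8% to 96.8% per library are whole within 1e-06), and the deposited TPM values are scaled by length and library (sums 967894 to 991008). Adapters were trimmed with cutadapt 1.9, per the submitters' processing notes. The identifiers have Trinity's form, while for the assembler settings, quantifier and strand the entry is: not given in the sources used here.

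Each column was assigned through the library name in the sample description. Counts were rounded and fitted with edgeR 4.0.16 in R 4.3.3: filterByExpr with a minimum of 10 per library and 15 in all, TMM factors, 1 robust quasi-likelihood model of all 18 libraries (12 residual degrees of freedom, common biological coefficient of variation 0.389), 11 comparisons, Benjamini-Hochberg over 70022 genes. The steps were tested on simulated data. The members, the 10 role lists, the 6 pathway lists and the marker lists were chosen as text patterns with earlier results of these data known.

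Members named are the 4 rises and 4 falls of smallest adjusted p per comparison of heat with control (no overlap of libraries, at least 5 TPM in the higher group), the 3 largest changes each way in the steps and between materials, the 4 of smallest adjusted p per difference of responses, the 10 most abundant and the most abundant of each list. Pathway genes are the most abundant of each list and the called rise and fall of smallest adjusted p in Ken 40 and MH 40. Others named in a count of 5 or fewer, or beside a relative (ERF1A, ACO1, ERF071, RAP2-3, DREB3, the second ERF3 and ERF060 genes, the ERF013 and ERF003 genes with counts in Ken control), were chosen after their values were seen.

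Alternatives were DESeq2 1.42.0, RLE factors, library totals, TMM factors of described genes, no filter, only the groups compared, the replicate number as a block, and each library left out. The same replicate number did not pair libraries of different groups (correlation of their deviations -0.107 to 0.0786). Libraries are limited to 3 per group, where an exact permutation test of 1 gene cannot go below 0.1. Tables and figures used pandas 2.3.3 and matplotlib 3.10.9 in Python 3.11.15.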

Additional observations from a re-analysis of the deposited data

Results flagged for a closer look

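At 38/33 °C, 20 members (29.0%, beside 16.4% of described genes) responded differently in MH and Ken by the test of material with temperature (edgeR, adjusted p below 0.05). The 4 with the smallest adjusted p were DREB2B (TRINITY_DN38333_c2_g3), with a response 3.29 higher in MH on the log2 scale, RAP2-2 (TRINITY_DN59149_c0_g6) at -1.57, and the ERF1B genes TRINITY_DN58901_c1_g1 at -4.85 and TRINITY_DN52450_c0_g3 at -4.52. Without MH 38 replicate 3, which was unlike its group, 39 members did so. At 40/35 °C, 26 members did so (37.7%, beside 31.3% of described genes), led by RAP2-2 (TRINITY_DN59149_c0_g6) at -2.57, the same ERF1B genes at -7.87 and -7.49, and ERF2 (TRINITY_DN54607_c0_g4) at -6.48. For RAP2-2 and the ERF1B genes, the MH control libraries stood at 177 to 226 TPM and at 5.89 to 22.3 TPM, and the Ken control libraries at 169 to 197 TPM and at 0.24 to 1.05 TPM. No formal outlier test was run on single values within groups of 3 libraries.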

How the results depend on the processing

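The counts of called members stayed within 1.5 times of those reported in 8 of the 11 comparisons under all alternatives run. The exceptions were MH 40 against MH 38 (25 with only the groups compared), MH 38 against Ken 38 (14 with only the groups compared, 39 without MH control replicate 3 and MH 38 replicate 3) and the difference of responses at 38/33 °C (38 without those 2 libraries). Fewer libraries entered those fits, and the cause was not tested. Leaving out 1 library gave 33 to 38 called in Ken 38, 49 to 53 in Ken 40, 27 to 30 from Ken 38 to Ken 40, 41 to 53 in MH 38, 51 to 54 in MH 40, 26 to 37 from MH 38 to MH 40, 22 to 25 between the controls, 12 to 38 between MH 38 and Ken 38, 30 to 34 between MH 40 and Ken 40, 16 to 39 for the difference at 38/33 °C and 24 to 26 for that at 40/35 °C. The replicate number as a block gave 39, 57, 35, 48, 53, 35, 25, 24, 35, 21 and 26 called members in the same order; the numbers do not pair the libraries, and the block ended 1 call among the named genes. For the named genes, 146 results gave 2023 values, of which 1894 stayed called or stayed not called, 75 lost the call, 43 gained it and 11 reversed. A reversal is a change of sign where either value was called. Changes of sign between values that were both not called are counted among the 1894. The reversals came with library totals in MH 38 (ERF3 TRINITY_DN33288_c0_g4 0.084, At2g41710 0.70, CRF4 0.80, RAP2-12 0.69, EIN3 0.60) and MH 40 (At2g41710 0.93, EIN3 0.77, PCO2 0.47), and with TMM factors of described genes in MH 40 (At2g41710 0.51, EIN3 0.36, PCO2 0.054). The cause of the reversals was not tested. Members under a few TPM rest on few counts, and fragments sharing a component cannot be separated.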
